A study of Homo sapiens with 6 samples.

Results

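The ERBB receptors and the growth factors that bind them were followed through 6 human lung adenocarcinoma cultures. The 10 genes were the receptors EGFR, ERBB2 and ERBB3, the ligands EGF, TGFA, AREG, EREG, HBEGF and NRG1, and LRIG1, a membrane protein that promotes receptor degradation. They were taken by gene symbol from the 16000 genes that the deposited count tables share. The resistant lines were PC-9GR and PC-9ER, derived from PC-9, and HCC827GR and HCC827ER, derived from HCC827, and PC-9 and HCC827 themselves were the parental lines. Resistance was to inhibitors of the EGFR tyrosine kinase and had been acquired, per the series design text, which asks which signalling pathways account for it. GR and ER are not spelled out, and 1 title reads HCC82GR, taken here as HCC827GR. All 6 lines were grown in RPMI-1640 with serum and antibiotics, the labels list no inhibitor in that medium, and they do not say whether a resistant line is 1 clone. PC-9 and HCC827 are established lines that carry an activating deletion in EGFR, and the count tables hold no information on variants.

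ERBB receptors sit in the plasma membrane and signal as pairs. EGFR binds EGF, TGFA, AREG, EREG and HBEGF, ERBB3 binds neuregulins such as NRG1 and has a weak kinase of its own, and ERBB2 has no known ligand and serves as the partner of the others. The ligands are made as membrane-bound precursors that proteases of the ADAM family release, and receptors at work pass the signal through adaptors to RAS and ERK, to PI3-kinase and to STAT factors. In lung adenocarcinoma with mutant EGFR the cells depend on this signal, and kinase inhibitors are given against it.

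Each line had 1 library, so no value has a replicate and the ratio of a resistant line to its parent compares 2 libraries, with an interval of 95% that covers counting error only. Levels are given as CPM, counts scaled to 1000000 per library, and total counts ran from 14529332 in HCC827 to 17859787 in PC-9GR. The ER lines, and no others, came in a second table, so ER against all other lines cannot be told apart from a difference between the tables. PC-9GR stood apart: its Spearman correlation across 13778 genes was 0.774 with PC-9 and 0.828 with HCC827GR, against 0.960, 0.943 and 0.888 between PC-9ER, HCC827GR and HCC827ER and their own parents. The parents PC-9 and HCC827 correlated at 0.831, so PC-9GR was less like PC-9 than HCC827 was. Ribosomal protein genes took 16.1% of the counts of HCC827ER, against 5.85% to 8.50% elsewhere, and scaling by total counts put the median of all genes in its pair at -0.35 on the log2 scale. With the trimmed mean of M values (TMM) that median was -0.01, so TMM values are given beside the log2 ratios, folds and counts of HCC827ER. Both pairs of a parent use the same parental library and are not independent of each other.

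EGFR, ERBB2, ERBB3, EGF and TGFA were lower in all 4 resistant lines than in the parent, although ERBB3 in HCC827ER was level with HCC827 under TMM and 0.02 above it on the log2 scale under DESeq2 size factors. LRIG1 was higher in all 4. AREG and EREG were at least 2-fold higher in both PC-9 derivatives and at least 2-fold lower in both HCC827 derivatives, and HBEGF ran the other way. NRG1 differed by more than 100-fold in PC-9GR and by 3.0-fold at most in the other lines. Of all genes with at least 1 CPM in a library, 12.3% were lower and 9.81% higher in all 4 pairs, so 5 of 10 and 1 of 10 members stand beside these shares. At least 2-fold lower in all 4 pairs were EGFR and EGF, and 1.02% of all genes. EGF reached 1 CPM in the parental libraries alone, so it could enter these counts only as lower, and without it 4 members were lower in all 4 pairs and EGFR alone by 2-fold. The same members met these 3 rules with TMM scaling (11.4%, 11.6% and 0.893% of all genes) and over the 3 pairs without PC-9GR (17.3%, 14.7% and 1.42%), alternatives that were chosen after the data had been seen.

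**Figure D1:**
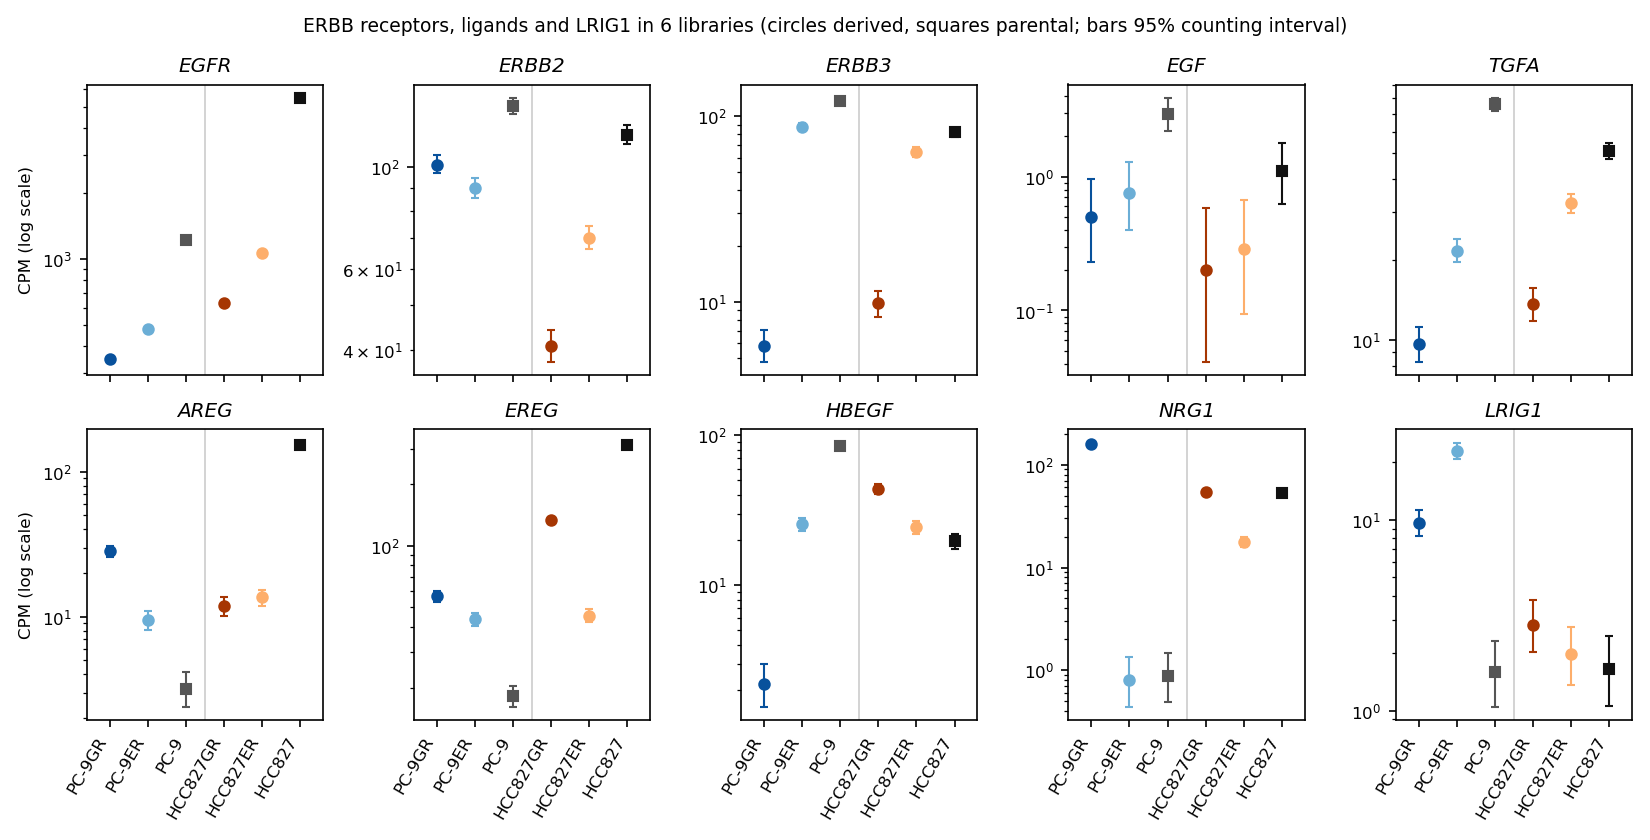
Level of each of the 10 genes in the 6 libraries, in CPM on a log axis that differs between panels, with resistant lines as circles, parental lines as squares and bars for the 95% counting interval. EGFR and TGFA lie below the parent in all 4 resistant lines, whereas AREG and EREG are lowest in PC-9 and highest in HCC827.

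EGFR, the target of the inhibitors, lies on chromosome 7 (55019021 to 55211628, plus strand, GRCh38, GENCODE release 29). It was at 348 CPM in PC-9GR and 481 CPM in PC-9ER, against 1221 CPM in PC-9. In the HCC827 lines it was at 632 CPM in HCC827GR and 1070.2 CPM in HCC827ER, against 5450.3 CPM in HCC827. By total counts the 4 resistant lines lay below both parents, whereas under TMM HCC827ER (1299 CPM) lay above PC-9 (1181 CPM). HCC827 had 4.46 times the level of PC-9 by total counts. EGFR transcripts were thus 3.51-fold lower in PC-9GR (3.41 to 3.61) and 2.54-fold lower in PC-9ER (2.47 to 2.60). They were 8.62-fold lower in HCC827GR (8.44 to 8.81) and 5.09-fold lower in HCC827ER (5.01 to 5.18, or 4.01-fold under TMM). In the fit over all 6 libraries, blocked by parental family, the log2 fold change was -2.03 ± 0.48 (standard error), lower in 4 of 4 resistant lines, and it did not pass the test adjusted over 13492 genes (adjusted p = 0.999, edgeR). No gene was called in this comparison by edgeR or by limma-voom, 0% of those tested, with 342 (2.53%) and 490 (3.63%) genes at an unadjusted p under 0.05. DESeq2 called 24 genes higher (0.156% of those it tested) and 14 lower (0.0910%), and EGFR was the only member among them (-2.02 ± 0.52, adjusted p = 0.0430). Without PC-9GR the edgeR value was -2.01 ± 0.58 (adjusted p = 0.998). A lower level in every cell and a smaller share of cells with the transcript cannot be told apart in these bulk libraries.

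Genes next to EGFR on 7p11 did not share its values in every line. VOPP1, a vesicle-associated protein, was at 144 CPM in PC-9GR and 287 CPM in PC-9ER, against 419 CPM in PC-9, and at 233 CPM in HCC827GR and 1349 CPM in HCC827ER, against 2249 CPM in HCC827. SEC61G, a subunit of the protein translocation channel, was at 124 CPM in HCC827GR and 1584 CPM in HCC827ER, against 1936 CPM in HCC827. SEC61G in HCC827ER was at a log2 ratio of -0.29 to HCC827, and of 0.06 under TMM. All 3 neighbours detected at 1 CPM (SEC61G, LANCL2 and VOPP1) were at least 2-fold lower in both GR lines, and none was in either ER line. LANCL2 in HCC827ER fell just short of 2-fold, with a log2 ratio of -0.99 (-0.64 under TMM). EGFR itself was at least 2-fold lower in all 4 resistant lines.

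ERBB2, the receptor without a ligand, lies on chromosome 17 (39687914 to 39730426, plus strand). Its level was 101 CPM in PC-9GR and 89.9 CPM in PC-9ER, against 135 CPM in PC-9. HCC827GR had 40.9 CPM and HCC827ER 70.1 CPM, against 117 CPM in HCC827. The differences were small beside those of EGFR: 1.33-fold, 1.51-fold and 1.67-fold lower in PC-9GR, PC-9ER and HCC827ER (1.32-fold under TMM in HCC827ER), and 2.87-fold lower in HCC827GR (2.62 to 3.15). In the fit over all lines it was at -0.67 ± 0.41 (adjusted p = 0.999, edgeR), and at -0.44 without HCC827GR. The ERBB2 locus overlaps MIEN1 and PGAP3, and no source used here says whether the authors counted by strand, so some reads could belong to these neighbours. MIEN1, a membrane anchor protein, was at 59.8 CPM in PC-9GR and 44.2 CPM in PC-9ER, against 29.1 CPM in PC-9, and thus differed in direction from ERBB2 there. The adaptor GRB7, also on 17q12, was lower in all 4 pairs, with log2 ratios of -1.06 and -0.50 in PC-9GR and PC-9ER and of -2.63 and -0.69 in HCC827GR and HCC827ER (-0.35 under TMM in HCC827ER).

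ERBB3, the neuregulin receptor, lies on chromosome 12 (56076799 to 56103505, plus strand) and split the GR from the ER lines. It was at 5.82 CPM in PC-9GR and 87.2 CPM in PC-9ER, against 120.5 CPM in PC-9. In the other family it was at 9.82 CPM in HCC827GR and 64.3 CPM in HCC827ER, against 81.9 CPM in HCC827. The GR lines were 20.7-fold (17 to 25.4) and 8.34-fold lower (7.02 to 9.97). The ER lines were 1.38-fold (1.29 to 1.48) and 1.27-fold lower (1.17 to 1.38), and in HCC827ER the TMM ratio was 0.997. ERBB3 had a fitted log2 fold change of -1.12 ± 1.14 (adjusted p = 0.999, edgeR). The value depended on which lines entered: it was -0.69 ± 0.81 without PC-9GR, -2.42 without PC-9ER and -2.15 without HCC827ER, and limma-voom gave -1.99 over all lines.

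Within each family the median ratio of the epithelial markers was lowest in the GR line, as the ERBB3 ratio was. Of the 8 in the list (EPCAM, CDH1, KRT7, KRT8, KRT18, KRT19, ESRP1 and GRHL2), 5 were at least 2-fold lower in PC-9GR and 0 in PC-9ER, with median log2 ratios of -4.86 and -0.45, beside 20.9% and 7.60% of all genes. In HCC827GR it was 7 and in HCC827ER 6, also under TMM, with medians of -2.84 and -2.18 (-1.84 under TMM), beside 8.79% and 28.3% of all genes (19.3% under TMM). The summed level of the list was 5641 to 8323 CPM in the 4 resistant lines and 10173 and 17251 CPM in PC-9 and HCC827. In the PC-9 family the sum ran against the median, with 8323 CPM in PC-9GR and 6689 CPM in PC-9ER. KRT8 and KRT18, among the most abundant of the list, were higher in PC-9GR than in PC-9, with log2 ratios of 0.50 and 0.46. GRHL2, a transcription factor that maintains epithelium, had no count in PC-9GR and 102 CPM in PC-9ER, against 94.3 CPM in PC-9. In the HCC827 lines it was at 0.200 CPM in HCC827GR and 2.60 CPM in HCC827ER, against 57.8 CPM in HCC827, so HCC827ER combined a low GRHL2 with an ERBB3 near that of its parent. Of 6 mesenchymal markers, 3 were higher in all 4 resistant lines (VIM, ZEB1 and ZEB2) and 3 were not (FN1, SNAI2 and CDH2). Of all genes, 9.81% were higher in all 4 pairs (11.6% under TMM). ZEB1 was at 0.754 CPM in PC-9ER, against 0.651 CPM in PC-9, both under 1 CPM and too low to show a direction in that pair. VIM, the filament vimentin, had log2 ratios of 8.01 and 4.97 in PC-9GR and PC-9ER and of 3.24 and 2.88 in HCC827GR and HCC827ER (3.23 under TMM in HCC827ER). FN1, fibronectin, had log2 ratios of -1.16 and 0.49 in PC-9GR and PC-9ER and of -1.61 and -0.03 in HCC827GR and HCC827ER (0.31 under TMM in HCC827ER). SNAI2, a repressor of epithelial genes, had -1.67 and 2.22 in the PC-9 derivatives and -0.36 and -1.0 in those of HCC827 (-0.66 under TMM in HCC827ER). CDH2, N-cadherin, was at 64.7 CPM in PC-9GR and at 0.267 CPM or less elsewhere. The part of these markers in the ERBB3 values was not tested. Among genes with a mean of at least 10 CPM, the 5 whose log2 levels over the 6 libraries were most like those of ERBB3 were URGCP (Pearson r = 0.992), RAB43 (0.989), the tight junction protein CLDN7 (0.987), the serine protease PRSS22 (0.985) and the small GTPase RAB17 (0.982). These are the highest of 9844 genes over 6 libraries, 3 from each parent's family, and are a description only. CLDN7 was at 0.728 CPM in PC-9GR and 208 CPM in PC-9ER, against 277 CPM in PC-9, and at 3.67 CPM in HCC827GR and 53.4 CPM in HCC827ER, against 235 CPM in HCC827.

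Counted per kilobase of annotated exon, which allows levels of different genes to be set side by side, EGFR had the highest level of the 3 receptors in every library. It made up 62.1% of their sum in PC-9GR and 60.6% in PC-9ER, against 72.9% in PC-9. Its share was 86.7% in HCC827GR and 81.8% in HCC827ER, against 93.8% in HCC827. ERBB2 made up 36.3% in PC-9GR and 22.7% in PC-9ER, against 16.2% in PC-9, and 11.2% in HCC827GR and 10.7% in HCC827ER, against 4.04% in HCC827. The ERBB2 share was thus larger in each resistant line than in its parent although its own level was lower. ERBB4, the remaining receptor of the family, had at most 0.296 CPM in any library. The genes most like EGFR over the 6 libraries were RBMX2 (r = 0.971), TRIM11 (0.954), LY6D (0.949), the interferon-induced tetherin BST2 (0.940) and the placental phosphatase ALPP (0.933).

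TGFA, a ligand of EGFR, was lower in all 4 resistant lines. The gene lies on chromosome 2 (70447280 to 70554193, minus strand). It was at 9.69 CPM in PC-9GR and 21.6 CPM in PC-9ER, against 76.1 CPM in PC-9, and at 13.6 CPM in HCC827GR and 32.4 CPM in HCC827ER, against 50.9 CPM in HCC827. All 4 resistant lines lay below both parents, by 7.86-fold (6.70 to 9.26), 3.52-fold (3.13 to 3.96), 3.76-fold (3.21 to 4.41) and 1.57-fold (1.40 to 1.76) relative to their own parent (PC-9GR, PC-9ER, HCC827GR, HCC827ER). In HCC827ER the TMM value was 1.24-fold lower. TGFA had a fitted log2 fold change of -1.64 ± 0.63 (adjusted p = 0.999, edgeR), and of -0.90 without PC-9, which leaves the change in the HCC827 lines.

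EGF, the founding ligand of the family (chromosome 4, 109912884 to 110012266, plus strand), was scarce in every line. Its counts were 9 in PC-9GR and 13 in PC-9ER, against 50 in PC-9, and 3 in HCC827GR and 5 in HCC827ER, against 16 in HCC827. Ratios to the parent were 0.170 (0.0736 to 0.350), 0.255 (0.127 to 0.476), 0.182 (0.0340 to 0.636) and 0.263 (0.0752 to 0.750; 0.333 under TMM), in the same order of lines. Each interval lay below 1, and the 4 intervals overlapped. The fit gave -2.08 ± 0.79 on the log2 scale (adjusted p = 0.999, edgeR). A count of 0 would allow up to 0.200 CPM in HCC827GR, which is the level that its 3 counts give.

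AREG and EREG, which encode amphiregulin and epiregulin, lie 56.4 kb apart on the plus strand of chromosome 4. EREG spans 74365143 to 74388751 and AREG 74445134 to 74455009. HBEGF, the heparin-binding ligand, spans 140332843 to 140346631 on the minus strand of chromosome 5. The 250 bases before the RefSeq start of each (GRCh38.p14) are shown because in these 3 members both derivatives of 1 parent lay on 1 side of it and both of the other parent on the opposite side. Capitals mark matches, on either strand, to the motifs AP-1 (TGANTCA), CRE (TGACGTCA), TEAD (GGAATG), GC box (GGGCGG) and TATA box (TATAAA).
AREG, chr4:74444886-74445135, plus strand: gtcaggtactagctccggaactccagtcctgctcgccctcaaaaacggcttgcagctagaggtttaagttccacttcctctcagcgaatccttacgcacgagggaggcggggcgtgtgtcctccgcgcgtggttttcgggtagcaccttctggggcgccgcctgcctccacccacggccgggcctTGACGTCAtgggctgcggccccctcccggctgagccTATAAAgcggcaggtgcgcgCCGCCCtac
EREG, chr4:74364895-74365144, plus strand: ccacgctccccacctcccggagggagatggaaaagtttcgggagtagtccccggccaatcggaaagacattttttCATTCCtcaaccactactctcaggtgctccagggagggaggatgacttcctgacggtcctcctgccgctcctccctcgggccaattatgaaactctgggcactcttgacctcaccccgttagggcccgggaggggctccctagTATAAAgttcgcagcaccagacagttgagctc
HBEGF, chr5:140346604-140346853, minus strand: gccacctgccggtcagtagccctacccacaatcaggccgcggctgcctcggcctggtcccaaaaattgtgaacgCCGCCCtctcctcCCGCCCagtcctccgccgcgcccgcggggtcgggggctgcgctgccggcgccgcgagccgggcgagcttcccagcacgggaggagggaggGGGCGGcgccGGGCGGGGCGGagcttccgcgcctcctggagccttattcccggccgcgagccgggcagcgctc
The AREG window held a CRE, the site named for the cyclic AMP response, that begins 65 bases before the start, a TATA box at 29 bases and a GC box at 9 bases. In the EREG window there were a TATA box at 32 bases and a TEAD match at 175 bases, and the HBEGF window held 5 GC box matches, of which the last 2 overlap, and none of the other 4 motifs. Among 35116 such windows over all genes, 1.65% hold a CRE, 10.7% a TATA box, 11.9% a TEAD match, 42.6% a GC box and 6.57% an AP-1 match. Windows of this table matched 8 of the 10 members. A match is a run of letters and not a measured site.

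In the PC-9 family AREG was at 28.4 CPM in PC-9GR and 9.45 CPM in PC-9ER, against 3.20 CPM in PC-9. In the HCC827 family it was at 11.8 CPM in HCC827GR and 13.6 CPM in HCC827ER, against 152 CPM in HCC827. The parents were the extremes, with 47.7 times more in HCC827 than in PC-9 (36.4 to 63.6), and the 4 resistant lines lay between them. AREG was 8.88-fold higher in PC-9GR (6.70 to 12) and 2.96-fold higher in PC-9ER (2.16 to 4.10). It was 13-fold lower in HCC827GR (11.1 to 15.2) and 11.2-fold lower in HCC827ER (9.79 to 12.9; 8.83-fold under TMM). By total counts the counting intervals of HCC827GR (10.1 to 13.6 CPM) and HCC827ER (11.9 to 15.4 CPM) overlapped. Under TMM the levels lay further apart, at 10.9 CPM in HCC827GR and 16.5 CPM in HCC827ER.

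EREG had the same order of parents. PC-9GR had 56.4 CPM and PC-9ER 43.5 CPM, against 18.2 CPM in PC-9, whereas HCC827GR had 133 CPM and HCC827ER 45.3 CPM, against 312 CPM in HCC827. Here too the resistant lines lay between the parents, and HCC827ER was close to both PC-9 derivatives. The ratios came to 3.09-fold higher in PC-9GR (2.72 to 3.53) and 2.39-fold higher in PC-9ER (2.09 to 2.74), and to 2.34-fold lower in HCC827GR (2.22 to 2.47) and 6.88-fold lower in HCC827ER (6.37 to 7.43; 5.42-fold under TMM). Both genes were at least 2-fold higher in both PC-9 pairs and lower in both HCC827 pairs, as were 0.196% of all genes, 27 in number. The set was again AREG and EREG under TMM (0.203%).

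HBEGF went the other way. It was at 2.18 CPM in PC-9GR and 25.5 CPM in PC-9ER, against 84.9 CPM in PC-9. Its level was 44.1 CPM in HCC827GR and 24.3 CPM in HCC827ER, against 19.7 CPM in HCC827. HBEGF was thus 38.9-fold lower in PC-9GR (28.3 to 54.9) and 3.33-fold lower in PC-9ER (2.99 to 3.72), 2.24-fold higher in HCC827GR (1.95 to 2.58) and 1.23-fold higher in HCC827ER (1.06 to 1.44; 1.57-fold under TMM). Lower levels in both PC-9 pairs with higher levels in both HCC827 pairs, of any size, were found in 4.62% of all genes (5.79% under TMM).

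The difference between the parents was tested as the log2 change in the HCC827 lines minus that in the PC-9 lines, over 14233 genes. It was -6.00 ± 1.36 for AREG, -3.22 ± 1.05 for EREG and 3.52 ± 1.93 for HBEGF, and none passed after adjustment (adjusted p = 1.00 each, edgeR). No gene was called by edgeR (0% of those tested), and 117 (0.822%) had an unadjusted p under 0.05. DESeq2 called 22 genes with a negative and 7 with a positive difference, 0.138% and 0.0437% of those it tested, and AREG was the only member among them (-5.98 ± 1.38, adjusted p = 0.0118). Without PC-9GR the edgeR values were -4.98 ± 1.42 for AREG (adjusted p = 0.161), -3.0 ± 1.31 for EREG and 2.63 ± 1.41 for HBEGF (adjusted p = 1.00 each). Within the HCC827 lines AREG was at -3.41 ± 0.84 (adjusted p = 1.00, edgeR), and 0% of genes were called, with 193 (1.36%) at an unadjusted p under 0.05 and 45 (0.311%) called by DESeq2, no member among them. Without PC-9GR, which leaves 1 derivative of PC-9, AREG was called there (-3.42 ± 0.87, adjusted p = 0.0118, edgeR) together with 0.734% of all genes on the lower side. Within the PC-9 lines AREG was at 2.60 ± 0.99, EREG at 1.48 ± 0.77 and HBEGF at -2.62 ± 1.27 (adjusted p = 1.00 each, edgeR), and 0% of genes were called, with 132 (0.927%) at an unadjusted p under 0.05 and 107 (0.810%) called by DESeq2, again no member. Over all 6 lines together the fitted changes were -1.58 ± 1.68 for AREG, -0.45 ± 0.85 for EREG and -1.24 ± 1.25 for HBEGF (adjusted p = 0.999 each, edgeR). Among the genes most like AREG over the 6 libraries were the ubiquitin ligase DTX2 (r = 0.972), the glycosyltransferase GALNT5 (0.933), the caspase CASP6 (0.925) and the centrin CETN3 (0.925).

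The other ligands of this stretch of chromosome 4 did not all follow AREG and EREG. BTC, betacellulin, was at 3.64 CPM in PC-9GR and 13.5 CPM in PC-9ER, against 6.45 CPM in PC-9, and at 9.48 CPM in HCC827GR and 4.63 CPM in HCC827ER, against 22.4 CPM in HCC827. It was therefore lower in both HCC827 derivatives, like AREG and EREG, and split in the PC-9 derivatives. EPGN, epigen, 49.8 kb from EREG on the side away from AREG, had at most 0.206 CPM in any library.

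**Figure D2:**
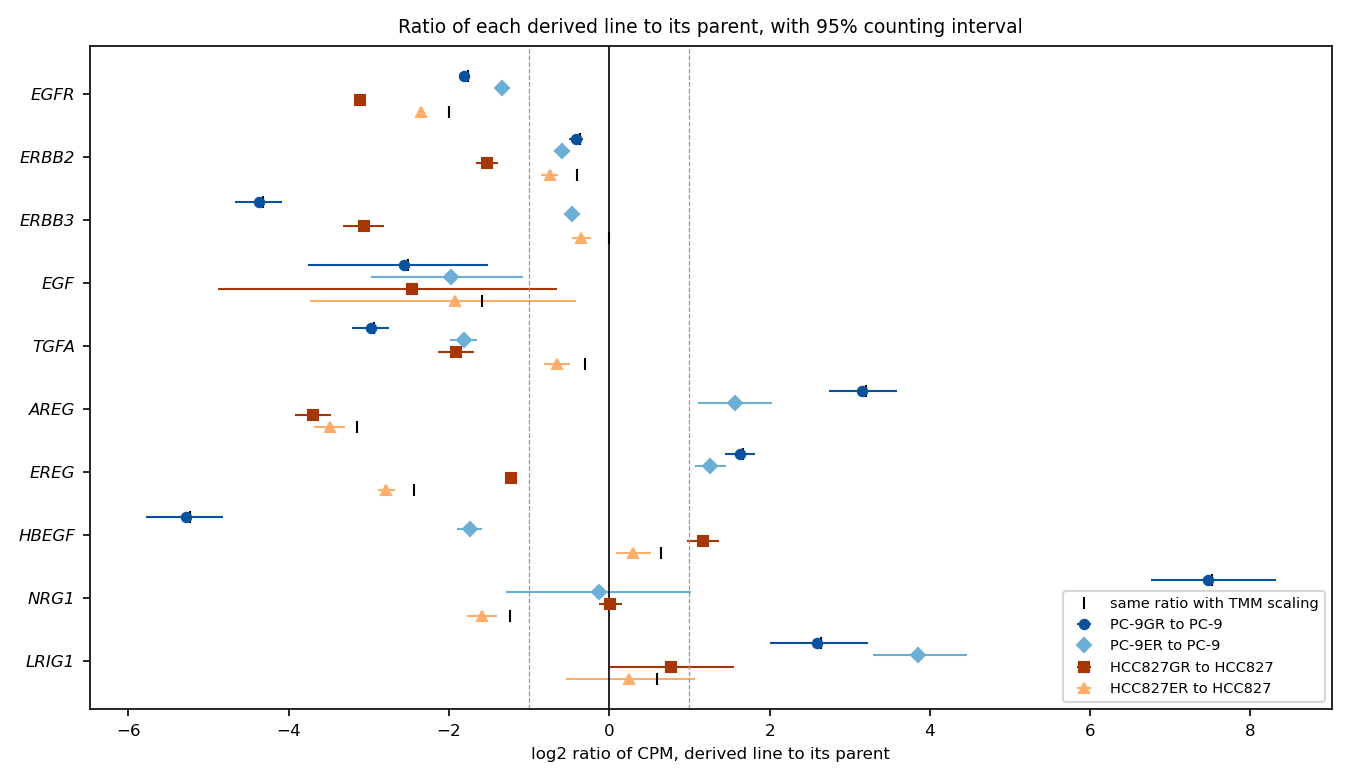
Ratio of each resistant line to its own parent for the 10 genes, on a log2 axis, with bars for the 95% counting interval, black ticks for the same ratio under TMM scaling and dashed lines at 2-fold. EGFR, ERBB2, EGF and TGFA lie left of 0 in all 4 pairs, and so does ERBB3 apart from a TMM ratio of 0.997 in HCC827ER, while AREG, EREG and HBEGF change sides between the PC-9 and HCC827 pairs.

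NRG1, neuregulin 1, the ligand of ERBB3, was set apart by PC-9GR. This line had 158 CPM and PC-9ER 0.812 CPM, against 0.888 CPM in PC-9, which are 2817 and 14 counts, against 15. HCC827GR had 54.0 CPM and HCC827ER 17.8 CPM, against 53.3 CPM in HCC827. NRG1 was 178-fold higher in PC-9GR (108 to 318), and PC-9ER had 0.915 times the level of PC-9 (0.409 to 2.03). HCC827GR had 1.01 times the level of HCC827 (0.917 to 1.12), and HCC827ER was 3.0-fold lower (2.63 to 3.44; 2.37-fold under TMM). In the order of levels, HCC827GR and HCC827 did not differ beyond counting error, and neither did PC-9 and PC-9ER. The change in the HCC827 lines minus that in the PC-9 lines was -7.02 ± 3.94 for NRG1 (adjusted p = 1.00, edgeR), and -0.39 ± 1.5 without PC-9GR. Over all lines the fitted change was 1.39 ± 2.58 and turned to -0.38 ± 0.51 without PC-9GR (adjusted p = 0.999 and 0.998, edgeR). PC-9GR thus had the highest NRG1 and the lowest ERBB3 of the 6 libraries. Gene-level counts do not separate the isoforms of NRG1.

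LRIG1, on chromosome 3 (66378797 to 66501263, minus strand), was higher in all 4 resistant lines. The locus overlaps SLC25A26, so, as for ERBB2, some reads could belong to the neighbour. LRIG1 was at 9.63 CPM in PC-9GR and 23.0 CPM in PC-9ER, against 1.60 CPM in PC-9. The HCC827 lines were close together, at 2.80 CPM in HCC827GR and 1.97 CPM in HCC827ER, against 1.65 CPM in HCC827. LRIG1 was 6.03-fold higher in PC-9GR (4.00 to 9.41), 14.4-fold higher in PC-9ER (9.75 to 22.1) and 1.70-fold higher in HCC827GR (1.00 to 2.93). In HCC827ER the ratio was 1.19 (0.685 to 2.10; 1.51 under TMM), which does not differ from 1 beyond counting error under total counts. The fit gave 1.82 ± 0.94 (adjusted p = 0.999, edgeR), which was 0.66 without PC-9 and 3.36 without HCC827, the changes of the HCC827 and of the PC-9 lines alone. Its relatives were not higher throughout: LRIG2 had log2 ratios of -1.68, -0.29, -0.01 and -1.30 (-0.96 under TMM), and LRIG3 of 0.01, -0.04, 0.28 and -0.62 (-0.28 under TMM), in that order of lines.

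Counted by size within each pair, 4 members were higher and 5 lower by 2-fold or more in PC-9GR, where 20.9% of all genes were higher and 20.9% lower by that much. In PC-9ER it was 3 higher and 4 lower of the 9 with at least 1 CPM in the pair, beside 5.49% and 7.60% of all genes. HCC827GR had 1 higher and 7 lower, beside 8.18% and 8.79%. HCC827ER had 0 higher and 5 lower, also under TMM, beside 11.3% and 28.3% (17.5% and 19.3% under TMM). EGF is among the lower members in each pair, where only the parent reached 1 CPM. NRG1 is among the higher members in PC-9GR. It had 0.888 CPM in PC-9, so in that pair it could be counted only as higher. Over all 10 members the median log2 ratio was -1.11 (PC-9GR), -0.53 (PC-9ER), -1.71 (HCC827GR) and -1.16 (HCC827ER, or -0.82 under TMM), beside -0.02, 0.03, 0.06 and -0.35 over all genes.

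Put on a common scale per kilobase of exon, the most abundant ligand changed from line to line. AREG led in PC-9GR with 41.4% of the 6 ligands, followed by NRG1 with 31.0%, and HBEGF led in PC-9ER with 32.9%, followed by EREG with 29%. In PC-9, HBEGF made up 60.6% and TGFA 27.0%. EREG led in HCC827GR with 44.0%, and AREG in HCC827ER with 27.6%, where HBEGF (25.6%) and EREG (24.7%) were close behind, whereas in HCC827 AREG made up 57.1% and EREG 31.4%. The summed level was 55.3 in PC-9GR and 32.5 in PC-9ER, against 58.7 CPM per kilobase in PC-9. It was 65.5 in HCC827GR and 39.7 in HCC827ER, against 215 CPM per kilobase in HCC827. HBEGF was 1.66% of the sum in PC-9GR, against 60.6% in PC-9, and AREG was 14.5% in HCC827GR, against 57.1% in HCC827. Exon length here is the union of annotated exons, which can differ from the transcripts that the cells used.

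**Figure D3:**
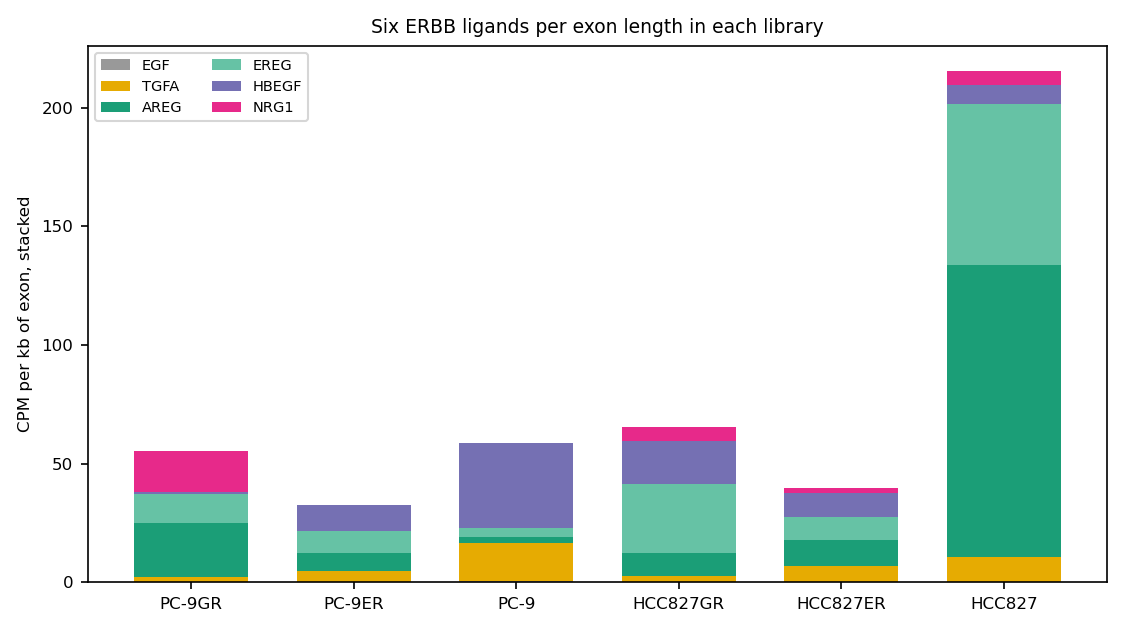
Level of the 6 ligands in each library as stacked bars, in CPM per kilobase of annotated exon. HCC827 has the highest sum (215), made mostly of AREG and EREG, PC-9 (58.7) consists mainly of HBEGF and TGFA, and NRG1 takes a large part in PC-9GR alone (31.0% of 55.3).

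The other genes of the pathway were read from lists grouped by step, and no gene of any list was called (0% of all genes tested, edgeR). Among 10 genes of ligand shedding, 5 were higher and 5 lower in the fit. Counts by direction of the fit, here and below, have no share of all genes beside them and only describe the lists. ADAM17, the main sheddase of AREG, TGFA and HBEGF precursors, was lower in all 4 pairs, with log2 ratios from -1.40 in PC-9GR to -0.05 in HCC827GR. RHBDF2, an iRhom that carries ADAM17 to the surface, was higher in all 4, from 0.19 in PC-9ER to 0.61 in PC-9GR. For this list and those below, 12.3% of all genes were lower and 9.81% higher in all 4 pairs (11.4% and 11.6% under TMM). ADAM10, the sheddase of EGF and betacellulin, was at 233 CPM in PC-9GR and 115 CPM in PC-9ER, against 163 CPM in PC-9, and at 188 CPM in HCC827GR and 68.6 CPM in HCC827ER, against 132 CPM in HCC827. It was thus higher in both GR lines and lower in both ER lines. ADAM9 had log2 ratios of 0.85 and 0.80 in PC-9GR and HCC827GR, -0.23 in PC-9ER, and -0.28 in HCC827ER, where TMM gave 0.07. TIMP3, a secreted protease inhibitor, was at 1.40 CPM in PC-9GR and 198 CPM in PC-9ER, against 568 CPM in PC-9. It had no count in the HCC827 lines.

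Of 14 genes of receptor turnover and feedback, 11 were lower in the fit, and ERRFI1, CBLC, SOCS4 and SH3KBP1 were lower in all 4 pairs. ERRFI1, the feedback inhibitor MIG6 that binds the EGFR kinase, was at 111 CPM in PC-9GR and 106 CPM in PC-9ER, against 175 CPM in PC-9. In the HCC827 family it was at 235 CPM in HCC827GR and 50.9 CPM in HCC827ER, against 266 CPM in HCC827. Median log2 ratios of the list were -0.60 and -0.53 in PC-9GR and PC-9ER and 0.08 and -1.04 in HCC827GR and HCC827ER (-0.70 under TMM in HCC827ER), beside the medians of all genes given above. Adaptors and first effectors were split evenly, with 9 of 18 higher and 9 lower in the fit. PLCG1 and STAT5B were higher in all 4 pairs, and SOS1, GAB1 and GRB7 lower, and under TMM NCK1 was higher in all 4 as well. SHC1, an adaptor for RAS, was within 1.5-fold of its parent in every resistant line, with log2 ratios of 0.42 and 0.14 in PC-9GR and PC-9ER and of -0.05 and -0.13 in HCC827GR and HCC827ER (0.21 under TMM in HCC827ER).

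ERK output genes, transcripts that ERK signalling induces, were the list with the most members on 1 side. In the fit 21 of 21 tested were lower, and 16 of 22 were lower in all 4 pairs, also under TMM. EGR3 is among the 16. It had 0.0688 CPM in HCC827 and no count in HCC827GR or HCC827ER, too little to show a direction in that family. At least 2-fold lower were 13 in PC-9GR and 18 in PC-9ER, of 22 each, beside 20.9% and 7.60% of all genes. In HCC827GR it was 11 of 20 and in HCC827ER 15 of 20, or 12 under TMM, beside 8.79% and 28.3% of all genes (19.3% under TMM). No gene of the list at 1 CPM in a pair was 2-fold higher, except under TMM the immediate early gene IER3 in HCC827ER, with a log2 ratio of 1.18 (0.83 by total counts). FOSL1, an AP-1 subunit, was at 18.9 CPM in PC-9GR and 41.1 CPM in PC-9ER, against 95.2 CPM in PC-9, and at 336 CPM in HCC827GR and 86.1 CPM in HCC827ER, against 756 CPM in HCC827. CCND1, cyclin D1, was also lower in all 4 pairs (-1.20 ± 0.59, adjusted p = 0.999, edgeR). MYC was lower in PC-9GR and PC-9ER, with log2 ratios of -1.08 and -0.42, and stood at 0.70 in HCC827GR and 0.09 in HCC827ER (0.44 under TMM). Of 4 other receptor kinases detected, AXL and FGFR1 were higher in all 4 pairs.

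**Figure D4:**
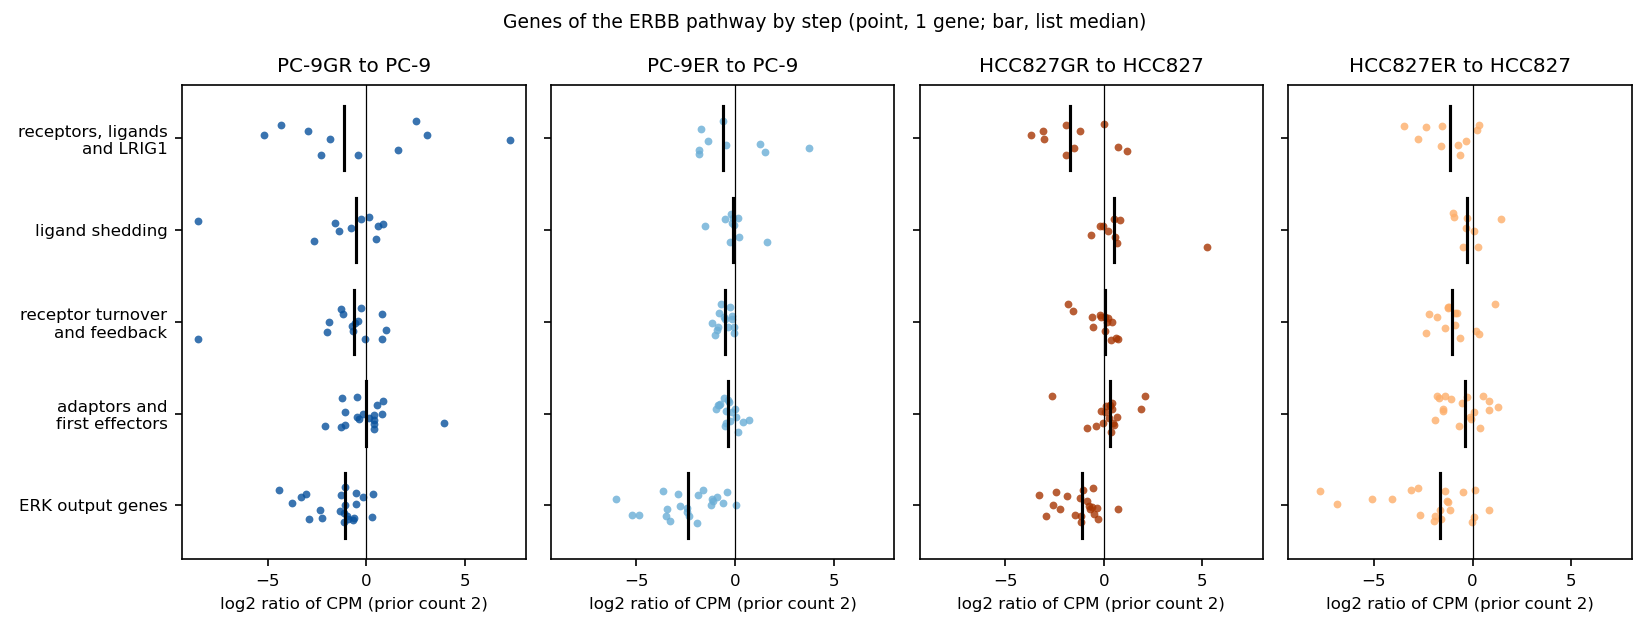
Log2 ratio of CPM (prior count of 2) of each resistant line to its parent for the 10 members and 4 lists of pathway genes, with 1 point per gene and a bar at the list median. The ERK output genes lie mostly left of 0 in all 4 panels, with medians of -1.10 and -2.39 in PC-9GR and PC-9ER and of -1.09 and -1.65 in HCC827GR and HCC827ER (-1.30 under TMM in HCC827ER). The adaptors have a median near 0 in PC-9GR but are spread there, with 5 of 18 at least 2-fold lower and 1 at least 2-fold higher.

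The labelled cell type was checked against its markers. All 8 epithelial markers had at least 1 CPM in PC-9ER, HCC827ER, PC-9 and HCC827, 7 did in HCC827GR and 6 in PC-9GR, where GRHL2 had no count. Of 4 lung adenocarcinoma markers in both tables, summed levels were 0.560 to 20.6 CPM in the resistant lines and 3.91 and 149 CPM in PC-9 and HCC827. NKX2-1, the lung lineage factor, had no count in PC-9GR and HCC827ER and was at 0.769 CPM in PC-9, so the lung label rests on few counts in the PC-9 lines. Leukocyte and fibroblast lists each had 1 gene at 1 CPM or more, CD68 and COL1A1, while CD3E had at most 0.0688 CPM. Of 4 endothelial genes, CDH5 was at 0.112 CPM in PC-9GR and 32.8 CPM in PC-9ER, against 151 CPM in PC-9. PECAM1 had no count in PC-9GR and was at 22.7 CPM in PC-9ER, against 68.6 CPM in PC-9. Both genes thus differed within the PC-9 family in the direction of EGFR, TGFA and HBEGF, and their part in those results was not tested. In the HCC827 family both had at most 0.413 CPM, and VWF and KDR had at most 0.344 CPM in any library, with no KDR count in the PC-9 family.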

How the data were processed

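Total RNA depleted of ribosomal RNA was sequenced from 6 lines with a stranded kit, per the labels' protocols. The authors deposited expected counts per gene, estimates that were not whole in 13.2% to 14.3% of the values of a library and were rounded here before testing. The aligner HISAT2 2.0.4, the build GRCh38.p13 and the testing program Cuffdiff are named per the submitters' processing notes, which name no counting program. The 16000 genes in both deposited tables were used (16854 genes in the table of 4 libraries, 16306 in that of the ER lines), and each per-sample column was mapped by its name.

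CPM used total counts. Ratios within a pair have exact conditional binomial intervals at 95%. Reads carry no molecular identifiers, so these cover counting error only. Log2 ratios used a prior count of 2, and a gene counted as 2-fold higher or lower needed at least 1 CPM in 1 library of the pair. Tests used edgeR 4.0.16 in R 4.3.3 (TMM, its default expression filter, robust quasi-likelihood fits, Benjamini-Hochberg adjustment over all genes at 0.05). DESeq2 1.42.0 and limma-voom (limma 3.58.1) served as alternatives. The edgeR code was run on simulated counts with less spread than these data, whose common dispersion was 0.416. That run does not show which changes could be called here. Line of origin was the block, with 3 residual degrees of freedom, and 2 in the fit with a change per parent. The spread is that between derived lines, so p-values say nothing of repeat cultures. Adjusted p-values are over all genes.

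Named genes were the 10 members, up to 4 genes of a list by mean CPM, and the 5 genes most like EGFR, ERBB3 and AREG; some genes that the rule names are not reported here. Genes outside this rule (among them GRHL2, ADAM17, RHBDF2, CBLC, SOCS4, SH3KBP1, PLCG1, STAT5B, SOS1, GAB1, EPGN and ERBB4) were chosen after their values were seen. Members and lists were chosen with earlier results of these data known. Coordinates and exon lengths are from GENCODE release 29.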

Additional observations from a re-analysis of the deposited data

Results flagged for a closer look

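AREG, EREG and HBEGF stood out because their levels moved in opposite directions in the derivatives of the parents. The log2 change in the HCC827 lines minus that in the PC-9 lines was -6.00 for AREG, -3.22 for EREG and 3.52 for HBEGF. The difference was tested, and none of the 3 passed with edgeR (adjusted p = 1.00 each), whereas DESeq2 called AREG (adjusted p = 0.0118). AREG and EREG were higher in 2 of 2 PC-9 derivatives and lower in 2 of 2 HCC827 derivatives, and HBEGF the reverse. Each pair of derivatives shares 1 parental library. A Dixon gap test on the log2 ratios of the derived lines singled out no line for any member. NRG1 in PC-9GR came closest, with a gap to the nearest line of 0.820 of the range, just under the cutoff. So few values, which share parental libraries, cannot decide whether a line stands apart, and no conclusion is drawn from this test. NRG1 was 178-fold higher in PC-9GR than in PC-9 and differed by 3.0-fold at most in the other pairs.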

How the results depend on the processing

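With DESeq2 the genes called were 38 over both parents, 107 in the PC-9 lines, 45 in the HCC827 lines and 29 for the difference, where edgeR called 0 in each, as it did with DESeq2 size factors and without the low-count filter. The cause was not tested. Leaving out 1 library at a time gave 0 to 1223 calls in the PC-9 lines (1223 without PC-9ER, 2 without PC-9GR), 0 to 161 in the HCC827 lines (161 without PC-9GR, 154 without PC-9ER) and 0 to 544 for the difference (544 without PC-9ER, 10 without PC-9GR). In these fits the lone derivative is assumed to vary like the other family, and fits of a family without its parent could not be made. Over both parents, leaving out 1 library turned 4 members. AREG ran from -3.40 to 2.60 (higher without HCC827), EREG from -1.74 to 1.48 (higher without HCC827, and 0.22 without HCC827ER), HBEGF from -2.62 to 0.90 (higher without PC-9) and NRG1 from -0.51 to 6.51 (lower without PC-9, and -0.38 without PC-9GR). Without a parent the fit gives the change of the other family alone. EGFR was called by DESeq2 only (-2.02). In the other 103 of the alternative member fits direction and call stayed. Sizes still moved by over 1.5 times for AREG, EREG, HBEGF and NRG1, and for ERBB2, ERBB3, TGFA and LRIG1 as given above. Of the ratios within a pair, 101 moved by less than their counting interval and 19 by more. Counts of members past 2-fold stayed within 1.5 times under TMM, a prior count of 0.5 and a threshold of 1.5-fold. EGF rests on 3 to 50 counts. Each derived line was matched to its parent by the block for line of origin. Without that block edgeR called 0 genes over both parents, and the members kept their direction (EREG -1.19). The labels give no replicate numbers for any other pairing.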
